A study of Homo sapiens with 12 samples.

Results

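The late response of HK-2 cells to the compound labelled Di was read from 6 of the 12 arrays of the study, 3 of cells exposed to Di for 48 h and 3 of their vehicle controls at 48 h, across the 10626 genes that could be measured. HK-2 cells are human and epithelial, derived from the proximal tubule of the kidney and immortalised. All groups came from this 1 line and were grown in medium with EGF, hydrocortisone, insulin, transferrin and selenite, and were treated close to confluence. The other 6 arrays held Di and its vehicle at 12 h, with 3 arrays in each group; they enter only the estimate of spread and the comparison of the 2 times. The labels give neither the identity nor the dose of Di, and they call the 3 arrays of a group biological replicates without saying that these were separate cultures, so the p-values below measure the spread between these arrays. The study was set up to find expression signatures of compounds toxic to the kidney.

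Several systems recur below. NRF2 is a transcription factor that KEAP1 marks for destruction; electrophiles and oxidants disable KEAP1, and NRF2 then binds antioxidant response elements with small MAF proteins and drives genes for glutathione, thioredoxin, quinone reduction and NADPH. Dividing cells switch on replication genes through E2F factors in late G1. Their mitotic genes are switched on through the DREAM and MuvB complexes at promoters with cell cycle homology regions and CCAAT boxes. CDKN1A can hold both programmes down. Whether it does so in this immortalised line was not tested. Proximal tubule cells reclaim bicarbonate, amino acids and small organic solutes, seal against each other through a leaky claudin-2 junction, and lose much of this equipment in culture and after injury.

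Values are the authors' log2 GCRMA signals, 1 probe set per gene. The array medians lay between 2.967 and 3.06. The correlation over probe sets was 0.99590 to 0.99794 between Di arrays, 0.99720 to 0.99805 between control arrays and 0.98207 to 0.98546 between a Di and a control array at 48 h. RNA integrity was read as the ACTB signal at the 3′ end minus that at the 5′ end, which was 1.405 ± 0.0776 (SD, n = 3) on the log2 scale in Di and 1.33 ± 0.128 in control, which an exact two-sided permutation test did not separate (p = 0.5; the smallest p that 3 against 3 can give is 0.1). Of 40 listed genes of proximal tubule function 35 had a probe set that could be used, and 12 exceeded the floor of 4 on the log2 scale. This floor is used throughout for a measurable signal. The endocytic receptors LRP2 and CUBN, the water channel AQP1, the phosphate transporter SLC34A1 and the factor HNF4A were not among the 12. All 5 general epithelial markers exceeded the floor. Of 14 leukocyte markers 10 had such a probe set and none exceeded it. Of 10 endothelial markers 1, CLDN5, did in 1 array of each 48 h group. Of 12 fibroblast and pericyte markers 5 did.

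By 48 h Di had moved a large part of the measured transcriptome, and more genes downwards than upwards by 2-fold or more. With limma and Benjamini-Hochberg adjustment over all genes, 5413 of 10626 genes (50.9%) had an adjusted p under 0.05 and are called below; 2436 (22.9%) were higher and 2977 (28.0%) lower. Among them 461 genes (4.34%) were at least 2-fold higher and 861 (8.10%) at least 2-fold lower, and 99 and 163 were at least 4-fold so. These percentages are the background for the counts in each gene group. The median change over all genes was -0.02 on the log2 scale. Raising every array value under the floor to the floor left 440 genes at least 2-fold higher and 800 lower. Of the 963 other probe sets of the 2-fold genes, 96.0% changed with the same sign and 84.3% were also called with it. In 1318 (99.7%) of the 1322 genes changed at least 2-fold the Di and control values did not overlap. A lack of overlap given below for such a gene is therefore a description and no added support.

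Some of the largest decreases were in proteins of the tubule's membranes and cilium. Signal for TMT1A, a membrane-bound thiol methyltransferase, was 9.27, 9.26 and 9.24 in the control arrays and 4.19, 4.24 and 4.22 in the Di arrays on the log2 scale, a 32.9-fold fall (log2 change -5.04 ± 0.0768, SE; adjusted p = 5.06e-12). SLC6A13, a transporter of GABA and taurine, went from 10.12, 9.91 and 10.16 to 5.17, 5.79 and 5.62 and so fell 23.2-fold. CYS1, cystin of the primary cilium, went from 8.91, 8.95 and 9.03 to 4.51, 4.48 and 4.88, a 20.3-fold fall. The replicates of TMT1A lay close together, while those of SLC6A13 in Di spread most, from 5.17 to 5.79. The groups of these 3 genes did not overlap, which was a condition for naming the genes of largest change. CYS1 did not stand for a fall of cilium genes in general. Of 17 intraflagellar transport genes 1 was at least 2-fold lower (5.88%), beside 8.10% of all genes. CLDN2, the pore-forming claudin of the proximal tubule, was at 8.53, 8.65 and 8.46 in control and at 3.10, 3.06 and 3.01 in Di, where it was under the floor, so its fall is given as at least 23.3-fold. Further falls were 15.6-fold in RASSF10, a Ras-association domain protein, 13.3-fold in ANK3, the ankyrin that anchors membrane proteins to spectrin, and 12.5-fold in DEFB1, the beta-defensin of tubular epithelium. BLNK, an adaptor best known from B cells, fell at least 19.5-fold, and the FERM scaffold FRMD4B at least 11.5-fold. Among the largest increases outside the groups below were the CAP-Gly linker protein CLIP4 (16-fold), the long noncoding RNA MSC-AS1 (12.6-fold) and the uncharacterised C7orf57 (10.8-fold).

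**Figure D1:**
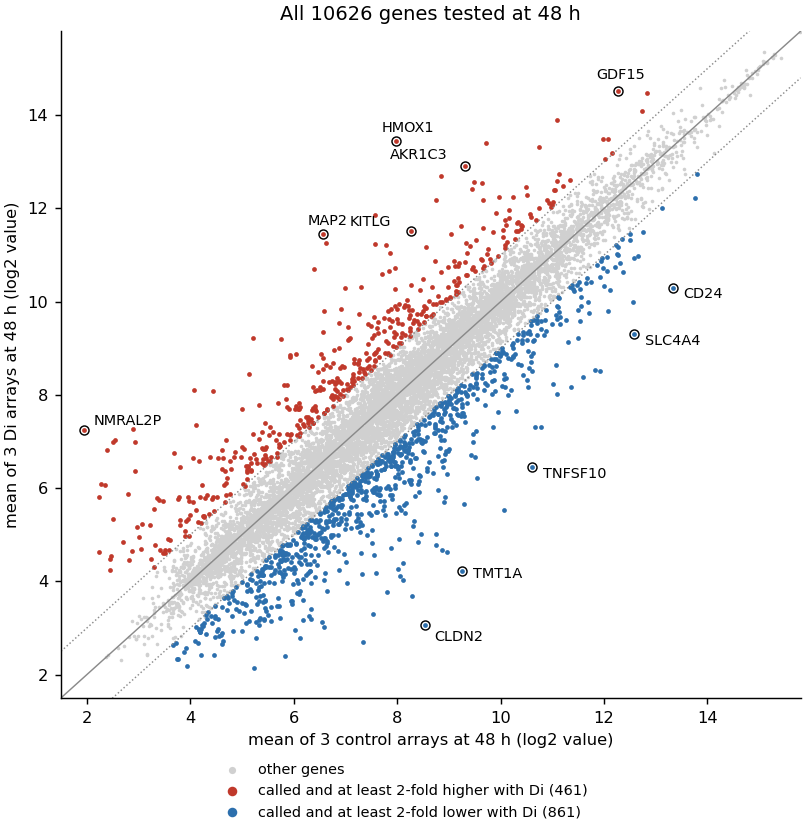
Mean log2 signal of each of the 10626 genes in the 3 control arrays at 48 h (horizontal axis) and in the 3 Di arrays at 48 h (vertical axis); dotted lines mark a 2-fold difference. The 461 genes at least 2-fold higher lie above the upper line and the 861 at least 2-fold lower below the lower line, and among the labelled genes CLDN2 and TMT1A lie farthest below the diagonal and NMRAL2P and HMOX1 farthest above it.

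The enzymes that reduce quinones, carbonyls and aldehydes stood highest of the stress groups. Of 17 measured members 10 were at least 2-fold higher and 1 lower, with a median log2 change of 1.19, beside 4.34% and 8.10% of all genes. AKR1C3, an aldo-keto reductase of steroids and prostaglandins, read 9.44, 9.19 and 9.33 in control and 12.85, 12.91 and 12.98 in Di, a 12.1-fold rise (log2 change 3.59 ± 0.0783, adjusted p = 5.35e-11). The groups lay more than 3 log2 units apart. AKR1B10, which reduces aldehydes and retinal, rose at least 4.17-fold from control values under the floor. AKR1C1 and AKR1C2 rose by 4.64 and 4.31 on the log2 scale. Both are read by probe sets that may bind the near-identical paralogs. With the mean of all their kept probe sets the changes were 4.36 (adjusted p = 1.57e-09) and 4.09 (adjusted p = 1.68e-11). Without the filter by the floor, probe sets that had failed it represent them, and neither was called (0.0220 with adjusted p = 0.570, and 0.0169 with adjusted p = 0.615). NQO1, the NADPH quinone reductase, rose 12.9-fold. ALDH7A1, a mitochondrial and cytosolic aldehyde dehydrogenase, was the member that fell at least 2-fold (2.32-fold).

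Glutathione synthesis rose at its first step, while users of glutathione moved in both directions. Of 21 measured genes of glutathione synthesis and use 4 were at least 2-fold higher and 2 lower (19.05% and 9.52%). Of 21 thioredoxin and peroxiredoxin genes 3 and 2 were (14.29% and 9.52%). The shares of all genes were 4.34% and 8.10%, so the lower counts of both groups lay near that of all genes. GCLC, the catalytic subunit of glutamate-cysteine ligase, read 8.73, 8.68 and 8.83 in control and 12.16, 12.15 and 12.26 in Di and rose 10.9-fold (log2 change 3.44 ± 0.082, adjusted p = 1.09e-10). Each Di array was above every control array. GSR, which regenerates reduced glutathione, rose 3.62-fold and the microsomal transferase MGST1 2.05-fold. GSTA4, which conjugates hydroxynonenal, fell 3.31-fold and GPX3, the secreted peroxidase made by the proximal tubule, 3.12-fold. TXNRD1, thioredoxin reductase, rose 7.03-fold and its substrate TXN 2.59-fold, whereas SOD2, the mitochondrial superoxide dismutase, fell 2.52-fold.

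The NADPH and haem groups held changes in both directions. Of 14 genes of the pentose phosphate pathway and NADPH supply, ME1 (3.43-fold), TALDO1 (2.81-fold) and ME2 (2.13-fold) were at least 2-fold higher and the mitochondrial isocitrate dehydrogenase IDH2 was 2.96-fold lower. Of 23 genes of haem and iron handling 3 were at least 2-fold higher and 2 lower. BLVRB, a biliverdin reductase, rose 2.47-fold. Within haem synthesis ALAS1, the first enzyme, rose 1.64-fold, while the later enzymes ALAD and UROD fell 3.19-fold and 1.98-fold and PPOX fell at least 2.11-fold.

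Regulators of NRF2 rose although the NRF2 transcript itself was not called. NFE2L2, which encodes NRF2, read 12.19, 12.25 and 12.07 in control and 12.13, 12.25 and 12.25 in Di, with a log2 change of 0.04 ± 0.123 and an adjusted p of 0.795, so its values overlapped between groups. KEAP1 read 8.38, 8.26 and 8.43 in control and 9.44, 9.35 and 9.27 in Di and rose 1.99-fold (log2 change 0.99 ± 0.0809, adjusted p = 1.62e-06), with no overlap. BACH1, the repressor that competes for the same elements, rose 1.65-fold. Of the 15 measured genes of the circuit 5 were at least 2-fold higher and none lower. They were TRIM16, a tripartite motif ubiquitin ligase (7.70, 7.72 and 7.92 in control, 11.21, 11.23 and 11.22 in Di, 10.8-fold), the small MAF partners MAFF (4.04-fold) and MAFG (3.43-fold), the autophagy receptor SQSTM1 that sequesters KEAP1 (2.69-fold) and the lysosomal regulator TFE3 (2.14-fold).

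**Figure D2:**
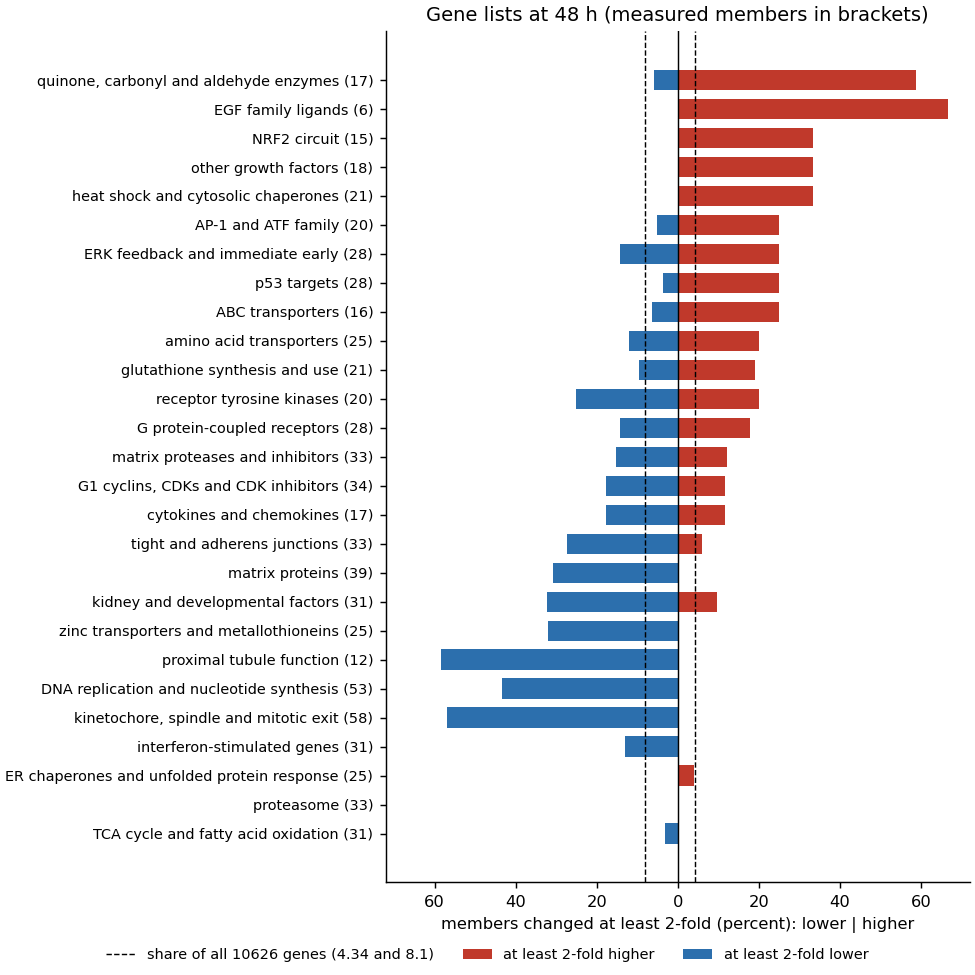
Share of the measured members of 27 gene lists that were at least 2-fold lower (bars to the left) or at least 2-fold higher (bars to the right) in Di at 48 h, in percent, with dashed lines at the shares over all genes, 8.10% lower and 4.34% higher. The quinone and carbonyl enzymes (10 of 17 higher) and the EGF family ligands (4 of 6 higher) reach farthest right, and the proximal tubule genes (7 of 12 lower) and the mitotic genes (33 of 58 lower) farthest left.

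Because antioxidant and AP-1 genes were among those that rose, promoters were read from RefSeq windows of 300 bases (250 before to 50 after the transcription start, GRCh38.p14), on both strands. The antioxidant response element, searched as TGAC, any 3 bases and GCA, was matched in 4.55% of 571 windows of 373 genes at least 2-fold higher, in 2.23% of 1077 windows of 687 genes at least 2-fold lower and in 3.01% of 12891 windows of all tested genes. The AP-1 site, searched as TGACTCA, was matched in 8.58%, 2.69% and 3.47% of them. These shares are descriptions with no test, windows of a gene overlap, and the 2 motifs overlap where TGACTCA runs on into GCA, which occurred in 2 of the 26 higher windows and 12 of the 388 tested windows with an antioxidant match. In all, 46 higher genes had an AP-1 match, among them OSGIN1, HSPA6, RUNX2, CXCL8, BAG3 and ME1. The 250 bases upstream of the start are shown for 3 of the genes, with each match in capitals: GCLM and TXNRD1, the regulatory subunit of glutamate-cysteine ligase and thioredoxin reductase, carry an antioxidant match on the reverse strand that begins 35 and 103 bases before the start, and OSGIN1, an oxidative stress-induced growth inhibitor, an AP-1 match that begins 97 bases before it. The windows are chr1:93909431-93909680 (minus strand), chr12:104286782-104287031 (plus strand, 1 of 2 windows of this gene) and chr16:83952990-83953239 (plus strand), written 5′ to 3′ in the gene's direction.
GCLM: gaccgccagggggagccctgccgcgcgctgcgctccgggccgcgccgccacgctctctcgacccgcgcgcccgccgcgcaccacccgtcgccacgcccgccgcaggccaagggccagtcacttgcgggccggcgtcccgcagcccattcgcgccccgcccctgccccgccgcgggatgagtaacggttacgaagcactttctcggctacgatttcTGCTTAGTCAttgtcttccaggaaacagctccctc
TXNRD1: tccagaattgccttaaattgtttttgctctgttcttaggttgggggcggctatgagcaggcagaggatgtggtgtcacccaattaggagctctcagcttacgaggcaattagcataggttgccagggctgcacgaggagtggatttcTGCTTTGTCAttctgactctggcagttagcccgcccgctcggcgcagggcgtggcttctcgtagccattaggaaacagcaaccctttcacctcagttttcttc
OSGIN1: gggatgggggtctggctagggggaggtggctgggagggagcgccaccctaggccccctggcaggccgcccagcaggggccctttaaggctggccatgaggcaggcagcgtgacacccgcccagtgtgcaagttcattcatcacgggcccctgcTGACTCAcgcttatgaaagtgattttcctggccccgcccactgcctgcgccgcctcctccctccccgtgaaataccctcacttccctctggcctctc

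**Figure D3:**
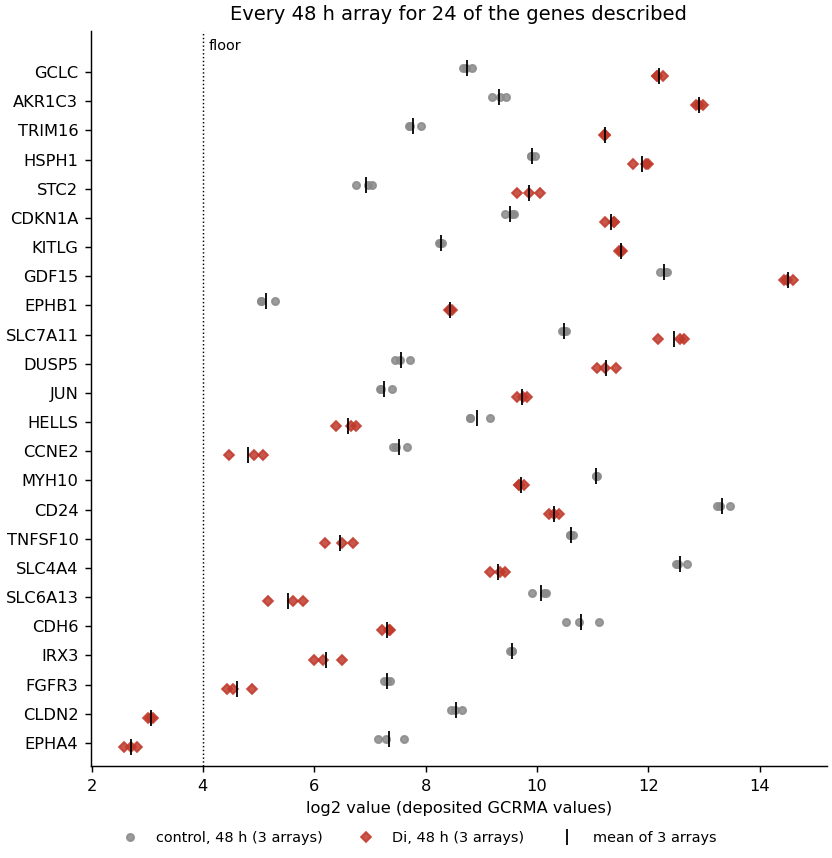
Log2 signal of 24 genes in each of the 3 control arrays (grey circles) and the 3 Di arrays (red diamonds) at 48 h; bars are group means and the dotted line is the floor of 4. The points of the 2 groups do not overlap in any of the 24 genes, as in 99.7% of all genes changed at least 2-fold. Those of CLDN2 and EPHA4 in Di lie below the floor.

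Cytosolic chaperones were higher almost throughout. Of 21 measured heat shock and cytosolic chaperone genes 17 were called higher and 1 lower (beside 22.9% and 28.0% of all genes), and 7 were at least 2-fold higher and none lower. HSPH1, the HSP110 exchange factor, read 9.89, 9.90 and 9.97 in control and 12.00, 11.96 and 11.72 in Di and rose 3.93-fold (log2 change 1.97 ± 0.0801, adjusted p = 6.58e-09), with all Di arrays above all controls. The J-domain cochaperones DNAJB4 and DNAJB1 rose 3.95-fold and 2.88-fold, and the HSP70 cofactor BAG3 3.47-fold. HSPA6, an HSP70 made almost only under stress, read 2.52, 2.49 and 2.51 in control and 5.23, 5.88 and 4.89 in Di and rose at least 2.52-fold; it has a near-identical copy, HSPA7, which its probe set may also read. The small heat shock protein CRYAB fell 1.38-fold. Promoter windows with a heat shock element, searched as GAANNTTC, made up 5.43% of those of higher genes, 5.29% of those of lower genes and 4.90% of those tested. HSPA6 is shown because its 250 bases (chr1:161524290-161524539, plus strand) hold both heat shock and AP-1 matches: GAACCTTC begins 180 and GAAAGTTC 69 bases before the start, and reverse-strand AP-1 matches begin 244 and 139 bases before it.
HSPA6: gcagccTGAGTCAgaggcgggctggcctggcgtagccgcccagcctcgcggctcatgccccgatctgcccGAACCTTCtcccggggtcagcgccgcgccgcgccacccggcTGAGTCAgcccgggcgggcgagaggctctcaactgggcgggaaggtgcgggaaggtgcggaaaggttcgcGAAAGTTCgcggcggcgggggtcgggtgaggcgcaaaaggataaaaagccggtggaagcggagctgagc

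Changes in the endoplasmic reticulum and proteasome groups were broad and small. For comparison, 22.9% of all genes were called higher and 28.0% lower. Of 25 measured genes of the unfolded protein response 17 were called higher and 1 lower, and 1, the oxidase ERO1A, rose at least 2-fold (2.11-fold); without Di replicate 1 or 2, or without control replicate 1 or 2, DERL3, a component of degradation from the endoplasmic reticulum (1.96-fold lower), also passed 2-fold. The chaperones PDIA4 and DNAJB11 rose 1.79-fold and 1.77-fold. Of 33 proteasome genes 20 were called higher and 2 lower (5 lower with the mean of all probe sets), none of them by 2-fold, led by PSMD3 (1.7-fold) and PSMB7 (1.56-fold). Of 35 autophagy and lysosome genes 4 were at least 2-fold higher: the protease CTSL (4.4-fold), SQSTM1, the galactosidase GLA (2.38-fold) and the ATG8 protein GABARAPL1 (2.24-fold). The lysosomal glycoprotein GPNMB fell 1.76-fold.

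The ATF4 and amino acid response rose in part. Of 32 measured members 5 were at least 2-fold higher and none lower. In all, 21 were called higher and 4 lower, beside 22.9% and 28.0% of all genes. STC2, stanniocalcin-2, a secreted target of ATF4, read 7.05, 6.75 and 6.97 in control and 10.06, 9.85 and 9.64 in Di and rose 7.61-fold (log2 change 2.93 ± 0.17, adjusted p = 1.08e-07). ATF3, a stress-induced repressor and activator of the same family, rose 8.49-fold from 9.41, 9.46 and 9.58 to 12.60, 12.59 and 12.52. Neither gene overlapped between groups. The remaining 3 were amino acid carriers described below. Serine synthesis moved slightly the other way, with PHGDH 1.21-fold and PSAT1 1.34-fold lower, and DDIT4, the inhibitor of mTORC1, was 1.41-fold lower. DDIT3, which encodes CHOP, had a log2 change of 0.28 ± 0.103 with adjusted p = 0.0392; its call was lost in 8 of the 14 alternatives, including without Di replicate 1 or 3 and without control replicate 1 or 2. Of 28 aminoacyl-tRNA synthetases, which ATF4 also drives, 15 were called higher and 4 lower, none by 2-fold.

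Replication and mitosis genes fell together. Of 58 measured kinetochore, spindle and mitotic exit genes 53 were called lower and 33 were at least 2-fold lower; of 53 replication and nucleotide synthesis genes 42 were called lower and 23 at least 2-fold so. No member of either group was at least 2-fold higher. Over all genes 28.0% were called lower and 8.10% were at least 2-fold lower. MKI67, the nuclear antigen of cycling cells, read 7.24, 7.32 and 7.48 in control and 5.75, 5.87 and 5.66 in Di and fell 3.01-fold (log2 change -1.59 ± 0.151, adjusted p = 5.43e-06). KIF11, the kinesin that pushes spindle poles apart, read 7.56, 7.85 and 7.80 in control and 5.36, 5.69 and 5.82 in Di and fell 4.32-fold. The spindle protein NUSAP1 fell 4.57-fold and the phosphatase CDC25C, which starts mitosis, 3.83-fold. In bulk RNA such as this, here and in the groups below, fewer cells of a kind and less RNA per cell cannot be told apart.

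Among replication genes GINS2, a subunit of the helicase that unwinds DNA at forks, read 8.13, 8.27 and 8.32 in control and 6.32, 6.02 and 6.06 in Di and fell 4.31-fold (log2 change -2.11 ± 0.0867, adjusted p = 7.45e-09). UHRF1, which recruits the maintenance DNA methyltransferase, fell 4.39-fold. Both were separate between groups. HELLS, a chromatin remodeller, read 8.79, 9.15 and 8.80 in control and 6.39, 6.75 and 6.67 in Di and fell 4.97-fold. It belongs to the checkpoint and recombination group, where 8 of 33 genes were at least 2-fold lower (5 without control replicate 2) and none higher. In that group the helicase BRIP1 fell at least 3.28-fold, BARD1, the partner of BRCA1, 3.97-fold and RMI2 of the BLM dissolvasome 3.15-fold. CENPN, RFC5 and RAD50 were called higher by 0.52, 0.72 and 0.58 on the log2 scale, but with the mean of all their probe sets the sign turned in all 3. Of 15 histone genes 9 were called lower and 1 was at least 2-fold lower, beside 28.0% and 8.10% of all genes.

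G1 regulators moved in both directions, with 4 of 34 at least 2-fold higher and 6 lower (3 lower without Di replicate 1). CCNE2, the cyclin that starts S phase, read 7.41, 7.67 and 7.47 in control and 4.47, 5.07 and 4.91 in Di and fell 6.5-fold (log2 change -2.70 ± 0.17, adjusted p = 1.96e-07). The CDK inhibitor CDKN1A read 9.42, 9.55 and 9.59 in control and 11.22, 11.38 and 11.39 in Di and rose 3.5-fold, and CDKN2B, which blocks CDK4 and CDK6, rose 6.47-fold. No values of the 3 genes overlapped between groups. CCND1, the D-type cyclin, rose 2.2-fold and the repressor E2F7 2.27-fold, while the pocket protein RBL1 fell 2.16-fold. MYC was not called (log2 change -0.09 ± 0.0689, adjusted p = 0.324).

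The lower cell cycle genes differed by motif. Of 34 windows of 28 mitotic genes at least 2-fold lower 64.7% held the cell cycle homology region TTTGAA and 76.5% a CCAAT box, beside 10.4% and 35.4% of the 12891 tested windows, and 5.88% held the E2F site TTCCCGCC. Of 28 windows of 20 replication genes at least 2-fold lower 32.1% held the E2F site, 60.7% a CCAAT box and 7.14% the homology region, where 4.84% of tested windows held the E2F site. Over all 1077 windows of lower genes the shares were 13.6% for the homology region, 37.9% for CCAAT and 5.29% for the E2F site. These are counts of letters on either strand with no test, and the groups were named for functions in which such promoters are known. The 250 bases upstream of GINS2 (chr16:85688955-85689204, minus strand), KIF11 (chr10:92592880-92593129, plus strand) and MKI67 (chr10:128126424-128126673, minus strand) are shown as examples of the 2 layouts, with matches in capitals. GINS2 has a reverse-strand E2F match that begins 32 and a CCAAT box 158 bases before the start. KIF11 has a reverse-strand homology region at 28 and a reverse-strand CCAAT box at 53 bases. MKI67 has homology regions at 47 and 29 bases and reverse-strand CCAAT boxes at 98 and 24 bases, the last overlapping a homology region by 1 base.
GINS2: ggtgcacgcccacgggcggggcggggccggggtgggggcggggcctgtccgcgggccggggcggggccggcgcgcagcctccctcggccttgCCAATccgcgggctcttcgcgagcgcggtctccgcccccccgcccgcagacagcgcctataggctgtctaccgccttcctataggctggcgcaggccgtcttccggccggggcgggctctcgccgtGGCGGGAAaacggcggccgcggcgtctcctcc
KIF11: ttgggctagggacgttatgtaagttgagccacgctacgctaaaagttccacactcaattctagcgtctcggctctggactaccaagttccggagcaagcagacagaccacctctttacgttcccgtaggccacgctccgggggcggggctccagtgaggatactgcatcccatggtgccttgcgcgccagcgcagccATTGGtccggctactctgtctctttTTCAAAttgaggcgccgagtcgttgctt
MKI67: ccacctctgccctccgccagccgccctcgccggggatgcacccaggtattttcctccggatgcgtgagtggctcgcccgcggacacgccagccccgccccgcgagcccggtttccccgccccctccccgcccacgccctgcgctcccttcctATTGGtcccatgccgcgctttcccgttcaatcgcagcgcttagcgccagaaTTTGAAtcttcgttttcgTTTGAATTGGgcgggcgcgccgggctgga

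**Figure D4:**
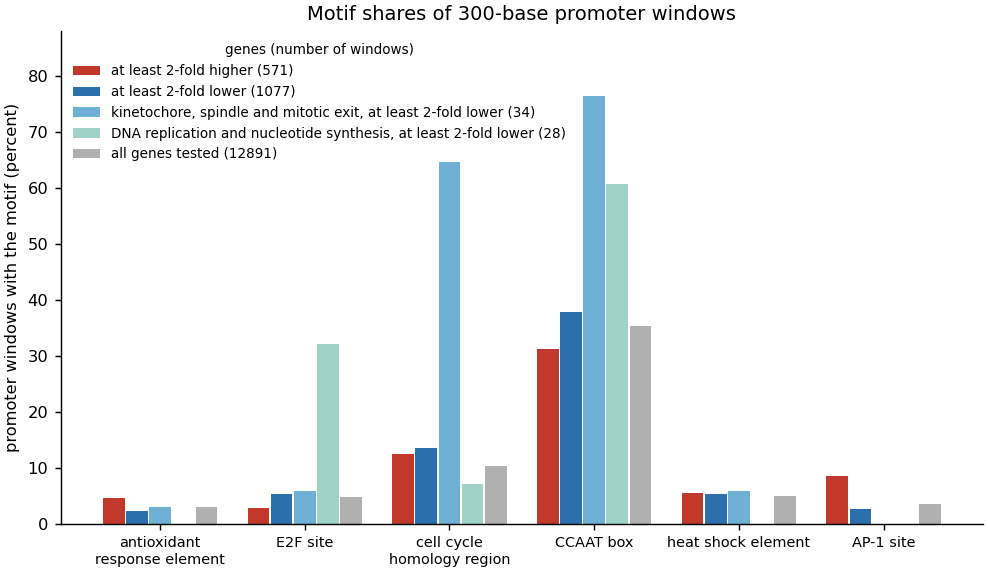
Percent of 300-base promoter windows that hold each of 6 motifs on either strand, for the 571 windows of genes at least 2-fold higher, the 1077 of genes at least 2-fold lower, the 34 and 28 of the lower mitotic and replication genes, and the 12891 of all tested genes. The bars of the lower mitotic genes reach 64.7% for the cell cycle homology region and 76.5% for CCAAT, that of the replication genes 32.1% for E2F, and that of the higher genes 8.58% for AP-1.

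Of 28 measured targets of the p53 pathway 7 were at least 2-fold higher and 1 lower (2 lower without control replicate 2), with a median log2 change of 0.29. GDF15, a secreted stress cytokine, read 12.30, 12.20 and 12.33 in control and 14.60, 14.50 and 14.44 in Di and rose 4.71-fold (log2 change 2.24 ± 0.0747, adjusted p = 1.48e-09). PHLDA3, an inhibitor of AKT, and AEN, an apoptotic nuclease, rose 3.93-fold and 3.86-fold, and CCNG2 fell 2.26-fold. Of 25 BCL2 family and caspase genes 2 were at least 2-fold higher and 1 lower. The BH3-only genes HRK and PMAIP1 rose at least 3.4-fold and 2.58-fold. The survival genes BCL2L1 and BCL2L2 rose less, 1.91-fold and 1.88-fold, and the executioner caspase CASP6 fell 2.84-fold. TNFSF10, the death ligand TRAIL, read 10.59, 10.64 and 10.60 in control and 6.49, 6.18 and 6.70 in Di and fell 17.8-fold (log2 change -4.15 ± 0.109, adjusted p = 2.11e-10), while its decoy receptor TNFRSF10D rose 3.03-fold. The 3 Di values of TNFSF10 lay about 4 log2 units under the controls.

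Among 151 secreted factors 24 were at least 2-fold higher and 24 lower; the former included many growth factors and the latter many matrix genes. The EGF receptor ligands moved together: all 6 measured were called higher, beside 22.9% of all genes, 4 of them by at least 2-fold. BTC, betacellulin, read 6.57, 6.29 and 6.24 in control and 8.01, 8.29 and 8.23 in Di and rose 3.51-fold (log2 change 1.81 ± 0.236, adjusted p = 6.54e-05). HBEGF, EGF and TGFA rose 2.57-fold, 2.45-fold and 2.3-fold, in a medium that contained EGF in both groups. KITLG, the ligand of KIT, read 8.26, 8.30 and 8.25 in control and 11.53, 11.48 and 11.51 in Di and rose 9.45-fold, and the vasodilator peptide ADM rose 6.84-fold; they belong to a group of other growth factors of which 6 of 18 were at least 2-fold higher and none lower. The values of BTC and KITLG did not overlap between groups. Of 15 TGF-beta family ligands and antagonists 3 were at least 2-fold higher, namely GDF15, BMP2 (2.41-fold) and TGFB2 (2.14-fold). Of 6 Wnt ligands and antagonists 2 were, the antagonist DKK1 and the agonist RSPO3 (at least 2.92-fold).

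Cytokines split, with 2 of 17 at least 2-fold higher (1 without Di replicate 1) and 3 lower. CXCL8, which attracts neutrophils, read 12.80, 12.70 and 13.00 in control and 14.52, 14.41 and 14.50 in Di and rose 3.12-fold (log2 change 1.64 ± 0.099, adjusted p = 1.41e-07). CCL2, which attracts monocytes, went the other way by at least 4.16-fold, and the mucosal chemokine CCL28 fell 2.51-fold. Of 17 IGF-binding proteins, complement and related genes 3 were at least 2-fold higher and 4 lower. PTX3, a soluble pattern receptor, rose 9.04-fold, CD55, which shields cells from complement, 6.17-fold, and the injury marker LCN2 3.49-fold. Complement components C3 and CFB fell 3.16-fold and 2.13-fold, and CFI and IGFBP3 at least 4.32-fold and 2.19-fold. Among 33 matrix proteases and inhibitors 4 were at least 2-fold higher and 5 lower. The protease inhibitor SERPINE2 rose 5.96-fold, urokinase, PLAU, 3.13-fold and the sheddase ADAM9 2.53-fold. ADAMTS9 and ADAMTS3, which cut proteoglycans and procollagen, fell 17-fold and 4.27-fold, and HTRA1 2.77-fold.

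Of 39 structural matrix genes 22 were called lower and 8 higher (5 higher without control replicate 1), beside 28.0% and 22.9% of all genes. Of these 39, 12 were at least 2-fold lower and none higher (1 higher without Di replicate 1 or control replicate 2). COL4A3, a collagen IV chain of the mature tubular and glomerular basement membrane, read 8.19, 8.37 and 7.75 in control and 4.07, 4.39 and 4.73 in Di and fell 13-fold (log2 change -3.71 ± 0.182, adjusted p = 2.97e-08). Its partner chains COL4A4 and COL4A5 fell 10.9-fold and 4.08-fold. In COL4A3 the highest Di array was 3 log2 units under the lowest control. The basement membrane proteoglycan HSPG2 fell 3.67-fold and the large proteoglycan VCAN 5.89-fold, whereas NID1 and LAMB3 rose 1.89-fold and 1.67-fold. Markers of fibroblasts and pericytes moved with these genes: 5 of 12 exceeded the floor (ACTA2, COL1A1, DCN, LUM and RGS5), 2 of them fell at least 2-fold (1 without Di replicate 1 or control replicate 3), and the summed level of all 12 was 11.16 to 11.35 in Di and 12.64 to 12.72 in control on the log2 scale. Their part in the result was not tested.

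Receptors changed in both directions, 20 of 183 at least 2-fold higher and 23 lower. Of 20 receptor tyrosine kinases 4 were higher and 5 lower (3 lower with quantile normalisation). EPHB1, an ephrin receptor, read 5.04, 5.29 and 5.05 in control and 8.44, 8.47 and 8.41 in Di and rose 9.95-fold (log2 change 3.31 ± 0.119, adjusted p = 2.78e-09). EPHA4, of the same family, read 7.29, 7.61 and 7.15 in control and 2.59, 2.71 and 2.82 in Di and fell at least 10.2-fold. The 2 ephrin receptors thus moved in opposite directions, each without overlap. FGFR3, a receptor of fibroblast growth factors, read 7.26, 7.36 and 7.30 in control and 4.53, 4.44 and 4.88 in Di and fell 6.46-fold, and its relatives FGFR2 and FGFR4 fell 3.29-fold and 2.11-fold, though 1 other probe set of FGFR2 was called in the opposite direction. EPHA2 rose 3.02-fold, the orphan receptor ROR1 2.51-fold and MERTK, which binds dying cells, 2.19-fold.

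Of the other receptor groups, the TNF receptors mostly rose. In this family 7 of 10 members were called higher and 1 lower, beside 22.9% and 28.0% of all genes. TNFRSF12A, the TWEAK receptor, rose 3.02-fold and the death domain receptor TNFRSF21 2.52-fold, while TNFRSF19 fell at least 3.34-fold. Of 26 receptors for TGF-beta, BMP, Wnt, Hedgehog and Notch signals 1 was at least 2-fold higher and 4 were lower (2 when all probe sets of a gene are averaged). LGR4, the receptor of R-spondins, fell 4.93-fold, the Hedgehog receptor PTCH1 4.32-fold and TGFBR2 2.1-fold, and the Wnt receptor FZD7 rose at least 1.57-fold. Of 28 G protein-coupled receptors 5 were at least 2-fold higher (2 with a floor of 6) and 4 lower. They included the adenosine receptor ADORA2B, at least 7.05-fold higher, the thrombin receptor subunit F2RL2, at least 3.44-fold higher, the retinoid-induced GPRC5A, 3.22-fold higher, and the prostaglandin E2 receptor PTGER2, 6.22-fold lower. Of 22 guidance molecules and receptors 1, NTN4, was at least 2-fold higher (2 without Di replicate 1) and 3 were lower, SEMA6A, SEMA4D and ROBO1, by 5.69-fold, 3.61-fold and 3.45-fold. Among 23 integrins and matrix receptors 3 were higher and 3 lower: the heparan sulfate proteoglycan GPC1 rose 16.4-fold, the hyaluronan receptor CD44 2.4-fold and ITGA3 2.04-fold, and ITGB8, the integrin subunit that releases active TGF-beta, fell 9.84-fold. Among nuclear receptors PPARG rose 4.3-fold and the vitamin D receptor VDR 2.45-fold.

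Of 156 listed transporters 15 were at least 2-fold higher and 24 lower, and of 201 members of the whole solute carrier family 10 and 26. Carriers of cystine, large neutral amino acids and glucose were among those that rose. SLC7A11, which imports cystine for glutathione, read 10.48, 10.52 and 10.44 in control and 12.17, 12.57 and 12.63 in Di and rose 3.93-fold (log2 change 1.97 ± 0.114, adjusted p = 1.05e-07). SLC7A5, the leucine carrier, rose 3.92-fold and SLC3A2, the heavy chain that both need, 2.39-fold. SLC2A1, the ubiquitous glucose transporter, rose 4.42-fold, SLCO5A1, of the organic anion carrier family, 6.34-fold and SLC22A15 2.07-fold. The carriers that fell included those of the proximal tubule's apical and basolateral membranes. SLC4A4, the basolateral sodium bicarbonate cotransporter, read 12.50, 12.69 and 12.53 in control and 9.33, 9.15 and 9.43 in Di and fell 9.65-fold (log2 change -3.27 ± 0.0898, adjusted p = 3.02e-10). The groups of SLC7A11 and SLC4A4 did not overlap. SLC3A1, the heavy chain of apical cystine uptake that is mutated in cystinuria, fell 7.12-fold, and SLC17A3, an organic anion and urate carrier, 15.3-fold from 8.05, 8.15 and 7.98 to 4.34, 4.01 and 4.02. SLC37A4, the glucose-6-phosphate carrier of gluconeogenic tissue, fell 5.87-fold, and the organic anion carrier SLCO4C1 4.24-fold.

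Efflux pumps, channels and metal carriers followed their own patterns. Of 16 ABC transporters 4 were at least 2-fold higher and 1 lower. ABCC1 and ABCC3, which export glutathione conjugates, rose 2.67-fold and 3.51-fold, the peptide transporter subunit TAP2 4.05-fold and the porphyrin transporter ABCB6 2.13-fold, while ABCB1, the multidrug pump, fell 2.27-fold. Of 25 zinc transporters and metallothioneins 8 were at least 2-fold lower and none higher. MT1F, MT1X and MT1E, metal-binding proteins, fell 2.66-fold, 2.61-fold and 2.41-fold; the metallothionein genes are near-identical copies, and their probe sets may not tell them apart. Of 28 pumps, exchangers and aquaporins 3 were higher and 4 lower. AQP11, an aquaporin of the endoplasmic reticulum, rose at least 1.54-fold, the calcium pump ATP2B1 2.31-fold, and the phosphate carrier SLC34A2 and the sodium pump subunit FXYD2 fell 3.2-fold and 2.9-fold. Among 34 ion channels 1 was higher (2 without Di replicate 3) and 3 lower: the calcium-gated KCNMA1 rose 2.54-fold, and the potassium channels KCNJ15 and KCNJ16 and the gap junction protein GJA1 fell 3.2-fold, 2.34-fold and 3.19-fold.

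Transcription factors were equally divided, 31 of 236 at least 2-fold higher and 31 lower. The AP-1 and ATF group stood on the higher side, with 5 of 20 at least 2-fold higher and 1 lower (2 lower without Di replicate 3). JUN, the core AP-1 subunit, read 7.18, 7.20 and 7.40 in control and 9.64, 9.82 and 9.74 in Di and rose 5.57-fold (log2 change 2.48 ± 0.128, adjusted p = 4.38e-08); its relative JUNB fell 2.44-fold. The genes that ERK signalling induces and that restrain it did not move as 1 group, with 7 of 28 at least 2-fold higher and 4 lower. DUSP5, a nuclear ERK phosphatase, read 7.45, 7.71 and 7.53 in control and 11.42, 11.23 and 11.07 in Di and rose 12.8-fold, and the stress kinase phosphatases DUSP10 and DUSP1 4.05-fold and 3.84-fold. DUSP6, the cytoplasmic ERK phosphatase, fell 3.84-fold, the immediate early factor EGR1 5.12-fold and the receptor kinase antagonist SPRY1 at least 2.84-fold. The values of DUSP5 and JUN did not overlap between groups.

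Several factors of nephron patterning and BMP signalling fell. Of 31 kidney and developmental factors 3 were at least 2-fold higher (1 with a floor of 6) and 10 lower. IRX3, an Iroquois factor of the nephron's tubular segments, read 9.56, 9.56 and 9.52 in control and 6.50, 6.16 and 6.00 in Di and fell 10-fold (log2 change -3.33 ± 0.106, adjusted p = 9.79e-10). Its neighbour IRX5 fell at least 6.01-fold, ID1, the BMP-induced inhibitor of differentiation factors, 5.67-fold and TFCP2L1 of the distal nephron at least 4.55-fold. SMAD6, another BMP target, fell 3.88-fold. HEY1, a Notch target, rose at least 5.35-fold, MSX1 2.69-fold and PAX8, the nephron lineage factor, 1.31-fold. Of 10 epithelial-mesenchymal factors 3 were at least 2-fold higher and 2 lower (1 lower without Di replicate 1 or control replicate 1): SNAI2, ZEB1 (2.25-fold) and ZEB2 (at least 2.92-fold) rose and TWIST1 and TCF3 fell 2.09-fold and 2.31-fold. Among 13 HOX factors 7 were called lower and none higher, beside 28.0% and 22.9% of all genes. HOXC6, HOXB9 and HOXB3 were past 2-fold.

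Of the remaining factors, RUNX2, best known from bone, rose 4.89-fold, ETS1 and ETS2 2.32-fold and 2.55-fold, and the epithelial ETS factor ELF3 fell 2.62-fold. KLF4 and KLF7 rose 4.57-fold and 2.81-fold and were the members of the 17 Kruppel-like and SP factors past 2-fold (4 higher without control replicate 2, and 1 lower without control replicate 3). In the hypoxia, metabolic and circadian group 4 of 31 were higher and 5 lower. BMAL1, the activating clock factor, rose 3.23-fold while the clock repressor PER2 fell 3.76-fold, the MYC antagonist MXD1 rose 5.26-fold, and PPARGC1A and SREBF1, regulators of mitochondria and of lipid synthesis, fell 2.83-fold and 2.62-fold. Of 31 interferon-stimulated genes 15 were called lower and 4 were at least 2-fold lower, beside 28.0% and 8.10% of all genes. The 4 were IFI44L, IFI44, IFITM1 and IFIT1, which fell 4.34-fold, 4.28-fold, 3.16-fold and 2.31-fold, although IRF1 rose 2.08-fold. The cytokine feedback inhibitor SOCS3 fell 2.75-fold.

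Genes of proximal tubule function were largely lower, 7 of 12 measured by at least 2-fold and none higher, with a median log2 change of -1.33. The summed level of the 35 listed genes with a probe set was 12.91 to 13.03 on the log2 scale in Di and 14.38 to 14.49 in control, against 13.68 to 13.81 and 14.04 to 14.19 for the 5 general epithelial markers. CDH6, the cadherin of the proximal tubule, read 10.75, 11.11 and 10.52 in control and 7.22, 7.33 and 7.36 in Di and fell 11.2-fold (log2 change -3.49 ± 0.157, adjusted p = 1.58e-08). The kidney cadherin CDH16 fell 4.53-fold. Of 15 markers of other nephron segments 13 had a probe set and 4 exceeded the floor in at least 1 array at 48 h. They summed to 7.364 to 7.687 in Di and 7.424 to 7.56 in control. The 10 endothelial markers summed to 6.254 to 6.37 in Di and 6.187 to 6.352 in control.

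Of 33 tight and adherens junction genes 9 were at least 2-fold lower and 2 higher. The adhesion proteins CDH1 and CDH2 fell 2.51-fold and 1.97-fold and the junction linker CGNL1 4.68-fold, whereas the sealing proteins CLDN4 and OCLN rose 2.76-fold and 2.18-fold. Injury markers did not move as 1 group, 5 of 20 higher and 5 lower. CD24, a surface protein of injured and progenitor-like tubule cells, read 13.29, 13.47 and 13.23 in control and 10.21, 10.39 and 10.30 in Di and fell 8.16-fold (log2 change -3.03 ± 0.124, adjusted p = 7.45e-09). VCAM1, the adhesion molecule of injured tubules, fell 18.3-fold, and ANXA3 rose 2.27-fold. The mesenchymal filament VIM was not called (log2 change 0.05 ± 0.0615, adjusted p = 0.574). Of 13 keratin and intermediate filament genes 6 were called higher and 2 lower, beside 22.9% and 28.0% of all genes. Of these 13, 1 was at least 2-fold higher (2 without control replicate 2). The keratin KRT80 rose 2.44-fold, while LMNB1, a lamin of the nuclear envelope, fell 8.18-fold and the keratin KRT19 2.28-fold. Of 28 tubulins and microtubule-associated genes 1 was at least 2-fold higher and 5 lower. MAP2, a microtubule-stabilising protein best known from neurons, rose 29.9-fold, and STMN1, TUBA1A and TUBB fell 3.31-fold, 2.79-fold and 2.24-fold. The nonmuscle myosin MYH10 read 11.05, 11.07 and 11.07 in control and 9.76, 9.67 and 9.69 in Di and fell 2.57-fold, while the actin-binding proteins PDLIM1 and PALLD rose 2.54-fold and 2.47-fold.

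Among housekeeping and metabolic groups few members passed 2-fold, and their counts called lower are read beside the 28.0% of all genes. Of 65 cytosolic ribosomal proteins none was at least 2-fold higher and 1, RPL31, lower; 4 were called higher and 4 lower, beside 22.9% and 28.0% of all genes (2 lower without Di replicate 2, and 12 with trend and robust moderation). Of 75 mitochondrial ribosomal proteins 1 was at least 2-fold lower, of 41 complex I and 18 ATP synthase subunits none. Of the latter groups 15 and 9 were called lower (9 and 5 without control replicate 1), for complex I not far from the share of all genes. Of 31 genes of the citric acid cycle and fatty acid oxidation 11 were called lower, also not far from the share of all genes, and 3 higher. Of these 31, 1, HADH, was at least 2-fold lower (2.19-fold). Among 31 glycolysis and hypoxia genes NDRG1 and the collagen prolyl hydroxylase P4HA2 rose 5.29-fold and 2.59-fold, and PDK4, the kinase that closes pyruvate dehydrogenase in fasting, fell 4.87-fold; without control replicate 1, 2 were at least 2-fold lower. Of 27 sterol and fatty acid synthesis genes 13 were called lower and 5 higher (3 higher without Di replicate 1 or control replicate 1), and 3 were at least 2-fold lower and none higher, led by the sterol reductase TM7SF2 (5.37-fold). Of 335 ZNF zinc finger genes 8 were at least 2-fold higher (15 without Di replicate 1) and 9 lower, and of 227 long noncoding RNA genes 9 and 25 (5 and 15 with a floor of 6).

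At 12 h the response was small. In the same fit 16 genes were at least 2-fold higher and 21 lower in Di at 12 h, with a median log2 change over all genes of -0.06. Of the 1322 genes changed at least 2-fold at 48 h 1219 (92.2%) had a called difference between their 48 h and 12 h changes, a count that the choice by the 48 h change favours. The difference was read for 14 genes listed for this purpose, of which 9 were called; these too were chosen with results of these data known, so the count is a description. HMOX1, haem oxygenase, had a log2 change of 0.63 at 12 h and 5.46 at 48 h (difference 4.83 ± 0.114, adjusted p = 7.28e-10). In the same order of times, the log2 change was -0.04 and 1.80 for LCN2, -0.34 and 1.14 for CCND1, and 0.48 and 1.81 for CDKN1A. It was -0.17 and 0.99 for KEAP1 and -0.13 and 0.73 for BACH1. Each of the 6 was thus further up at the later time. HAVCR1, the injury marker KIM-1, had a log2 change of 1.15 at 12 h and -1.55 at 48 h (difference -2.70 ± 0.205, adjusted p = 2.89e-06). MKI67 had changes of -0.68 and -1.59, and CDH2 of -0.16 and -0.98. The differences of DDIT3, NFE2L2, MYC, CDH1 and VIM were not called, with adjusted p = 0.162, 0.627, 0.0634, 0.0689 and 0.604. The mitotic list had a median log2 change of -0.24 at 12 h and -1.07 at 48 h, and the matrix list -0.52 and -0.37.

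**Figure D5:**
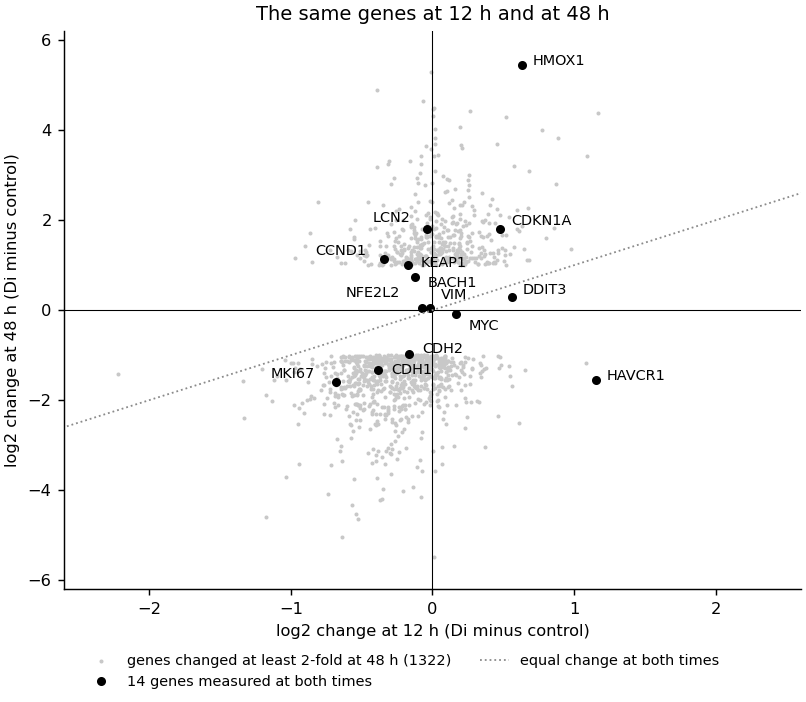
Log2 change of Di against control at 12 h (horizontal axis) and at 48 h (vertical axis) for the 1322 genes changed at least 2-fold at 48 h (grey) and the 14 genes listed for the comparison (black, named); the dotted line marks equal change. HMOX1 lies far above the line and HAVCR1 far below it, and NFE2L2, MYC and VIM lie near 0 at 48 h.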

How the data were processed

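Total RNA of HK-2 cells was hybridised to 12 Affymetrix arrays, 3 in each of 4 groups. The deposited values are log2 signals that the authors computed with GCRMA, per the submitters' processing notes; its version is not given in the sources used here. GCRMA subtracts background by probe sequence, so unexpressed genes pile up near the low end of the scale. No depth applies to arrays; their number limits the precision.

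Of 54675 probe sets, 62 were controls, 41097 had 1 gene symbol in the platform annotation, 1801 several and 11777 none; only those with 1 were used. A probe set was kept if it exceeded a floor of 4 on the log2 scale in at least 3 of 12 arrays, which left 18957 with 1 gene. The kept probe set with the highest mean stands for its gene (355 genes rest on a probe set marked as cross-hybridising). limma 3.58.1 in R 4.3.3 fitted 1 mean per group over all 12 arrays; the contrast was Di minus control at 48 h, two-sided, with Benjamini-Hochberg adjustment over 10626 genes. Errors of changes are standard errors of this fit, with 3 arrays per group. On simulated data of this design the fit recovered 90% of 100 genes changed by 1 and 57% of 100 changed by 0.5 on the log2 scale. Of its calls 10 (6.37%) were false. Only these genes were changed in the simulation, whereas 50.9% of genes were called in the data, so the rates may differ there.

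A fold against a group whose mean was under the floor is given as a bound, from the bright group's mean to, in each dim array, the higher of the floor and the measured value. Genes named are the 15 with the largest change in each direction, 6 bounds in each direction, up to 4 called members per described list and direction, and the genes listed for the comparison of times. The 15 and the 6 were taken only from called genes whose Di and control values did not overlap. Of 1973 gene names in 62 lists 1392 were measured; 60 families were formed by symbol. The members and lists were chosen with earlier results of these data known. List counts, medians and motif shares have no test. Promoter windows came from RefSeq (GRCh38.p14), matched by symbol for 8818 of the tested genes. Same-numbered Di and control arrays did not deviate together (r = -0.033, 0.128 and -0.266), so the numbers were not taken to pair them. Tables and figures were made with Python 3.11.15, pandas 2.3.3 and matplotlib 3.10.9. Tried were 14 alternatives.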

Additional observations from a re-analysis of the deposited data

Results flagged for a closer look

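The changes at 48 h and at 12 h were compared for 14 genes in 1 limma fit, with Benjamini-Hochberg adjustment over all genes tested, and 9 of them differed between the times. The differences, 48 h change minus 12 h change on the log2 scale, were 4.83 for HMOX1 (adjusted p = 7.28e-10), 1.84 for LCN2 (1.25e-06), 1.48 for CCND1 (1.32e-04), 1.33 for CDKN1A (4.31e-06), 1.16 for KEAP1 (1.86e-05) and 0.85 for BACH1 (9.8e-04), all further up at 48 h. HAVCR1 (-2.70, adjusted p = 2.89e-06), MKI67 (-0.90, 0.00637) and CDH2 (-0.82, 2.37e-04) were further down. The groups have 3 arrays each, so no array was tested for standing apart.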

How the results depend on the processing

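Each result was recomputed under 14 alternatives. The number of genes called ranged from 4735 to 5516, with 2098 to 2611 higher and 2637 to 3036 lower, and the number changed at least 2-fold from 1148 to 1370, with 401 to 494 higher and 747 to 912 lower; none moved by over 1.5 times. Leaving out each array in turn gave 4735 to 4989 called genes, 2098 to 2316 higher and 2637 to 2825 lower, and 1283 to 1370 changed at least 2-fold, 447 to 494 higher and 789 to 912 lower. A floor of 6 gave 1148 genes changed at least 2-fold among the 8751 tested, the mean of all probe sets 1252, quantile normalisation 1275, median centring 1345, no filter 1330 among 19775, the 48 h arrays alone 1319, and moderation with a trend and robust weights 1324. Between 86.54% and 100% of the 1322 genes were again changed at least 2-fold under each alternative, all of these with the same sign. A fit with the replicate block called 5076 genes, 2265 higher and 2811 lower, and 1319 changed at least 2-fold, 461 higher and 858 lower. Of 519 named genes with a call 478 kept it wherever they were tested and 41 lost it in at least 1 alternative. Among the genes named above these included DDIT3, and AKR1C1 and AKR1C2 with no filter only. The mean of all probe sets reversed CENPN (-0.175), PSMA5 (-0.758), RAD50 (-0.0515) and RFC5 (-0.264), and no filter reversed MT1G (0.0495), because other probe sets then enter. Of the 14 genes compared between times 9 or 10 differed; the tenth was MYC with median centring, no filter or the trend, and CDH1 with quantile normalisation. Of 6832 counts of list and family members 262 moved by over 1.5 times. A signal near the floor limits what can be read of dim genes.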
